A study of Caenorhabditis elegans with 2 samples.

Results

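The core programmed cell death pathway of Caenorhabditis elegans is described here at 6 genes, out of 19973 protein-coding genes of the 6 nuclear chromosomes. The members were chosen by symbol in the WBcel235 annotation. They were cep-1, egl-1, ced-13, ced-9, ced-4 and ced-3, and each symbol matched 1 gene. The measurement was chromatin immunoprecipitation and sequencing, which maps where a protein sits on DNA, for EFL-1, an E2F-family transcription factor. The animals were whole L1 larvae, of mixed sex and of strain YL424. They carried the mutation unc-119(ed3) on chromosome III and the transgene vrIs68, in which the efl-1 promoter and 3' UTR drive EFL-1 fused to GFP and FLAG, beside a working copy of unc-119. There was 1 group, with 2 libraries that the labels give as separate biological replicates, and no other stage, strain or treatment. The comparisons were therefore between genes, and no test between conditions was possible. EFL-1 was read through the tagged transgene product, whole larvae pool every cell type, and a site used in few cells cannot be told apart from one weakly used in many.

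In the worm, programmed cell death is switched on when EGL-1 or CED-13, which are BH3-only proteins, bind and inhibit CED-9, the Bcl-2-like guardian of cell survival at mitochondria. This frees CED-4, the Apaf-1-like adaptor, to activate the caspase CED-3. CEP-1, the p53-like transcription factor, acts above them and induces egl-1 and ced-13 after DNA damage. Most somatic cell deaths of the worm take place in the embryo, before the L1 stage, and germ cells die by the same core pathway in the adult. EFL-1 works with its partner DPL-1 and with the Rb-like protein LIN-35. In the worm germ line, dpl-1 and efl-1 have been reported to promote death through ced-4 and ced-3, and lin-35 to do so by holding ced-9 down.

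The DNA under 3 EFL-1 peaks near ced-9, ced-4 and ced-3 is shown because these peaks lay upstream of the genes and outside the promoters at their own starts. Each sequence runs for 50 bp on both sides of the summit, the authors' position of highest signal, and reads 5′ to 3′ on the strand of the gene. The windows were chrIII:10334089-10334189 on the plus strand for ced-9, chrIII:4850306-4850406 on the plus strand for ced-4 and chrIV:13206031-13206131 on the minus strand for ced-3, in the ce11 build and from the RefSeq copy of that sequence. Capitals mark matches to the CHR cores TTTGAA or TTCGAA on either strand. The core TTCGAA reads the same on both strands, and the capitals near ced-9 are TTTGAA on the opposite strand.
ced-9: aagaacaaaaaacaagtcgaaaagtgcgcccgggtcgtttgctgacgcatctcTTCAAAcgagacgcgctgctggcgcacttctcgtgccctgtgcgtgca
ced-4: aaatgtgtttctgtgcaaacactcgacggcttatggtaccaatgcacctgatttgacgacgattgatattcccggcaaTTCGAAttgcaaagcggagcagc
ced-3: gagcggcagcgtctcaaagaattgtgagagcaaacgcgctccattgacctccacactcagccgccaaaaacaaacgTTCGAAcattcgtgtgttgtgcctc

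Counted at each gene's own starts, EFL-1 sat in the promoter of 1 of the 6 death genes, upstream of 3 others, and at none of these places for the remaining pair. A promoter here is the stretch that begins 500 bp before an annotated transcript start and ends 100 bp after it, counted for each start of a gene. A reproducible peak is an entry of the list that the authors derived from both replicates, and it was assigned by its summit. Of the 6 genes, cep-1 had a reproducible promoter peak, at an internal start, against 14.8% of all protein-coding genes. In the outer upstream window, which reaches from the upstream edge of the promoter to 2000 bp before a start, ced-9, ced-4 and ced-3 had a reproducible peak, and 8.5% of all genes had one. None of these 3 genes had a promoter peak at its own start as well, and 6.97% of all genes shared that combination. The ced-9 peak lay in the promoter of mev-1, the operon partner from whose promoter ced-9 is also read. No death gene had a reproducible peak in its gene body outside the promoter, where 2.98% of all genes had one. In any of the 3 windows, 4 of 6 death genes and 23.5% of all genes had a reproducible peak. With 6 genes, each of these shares moves in large steps, and none was tested.

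**Figure D1:**
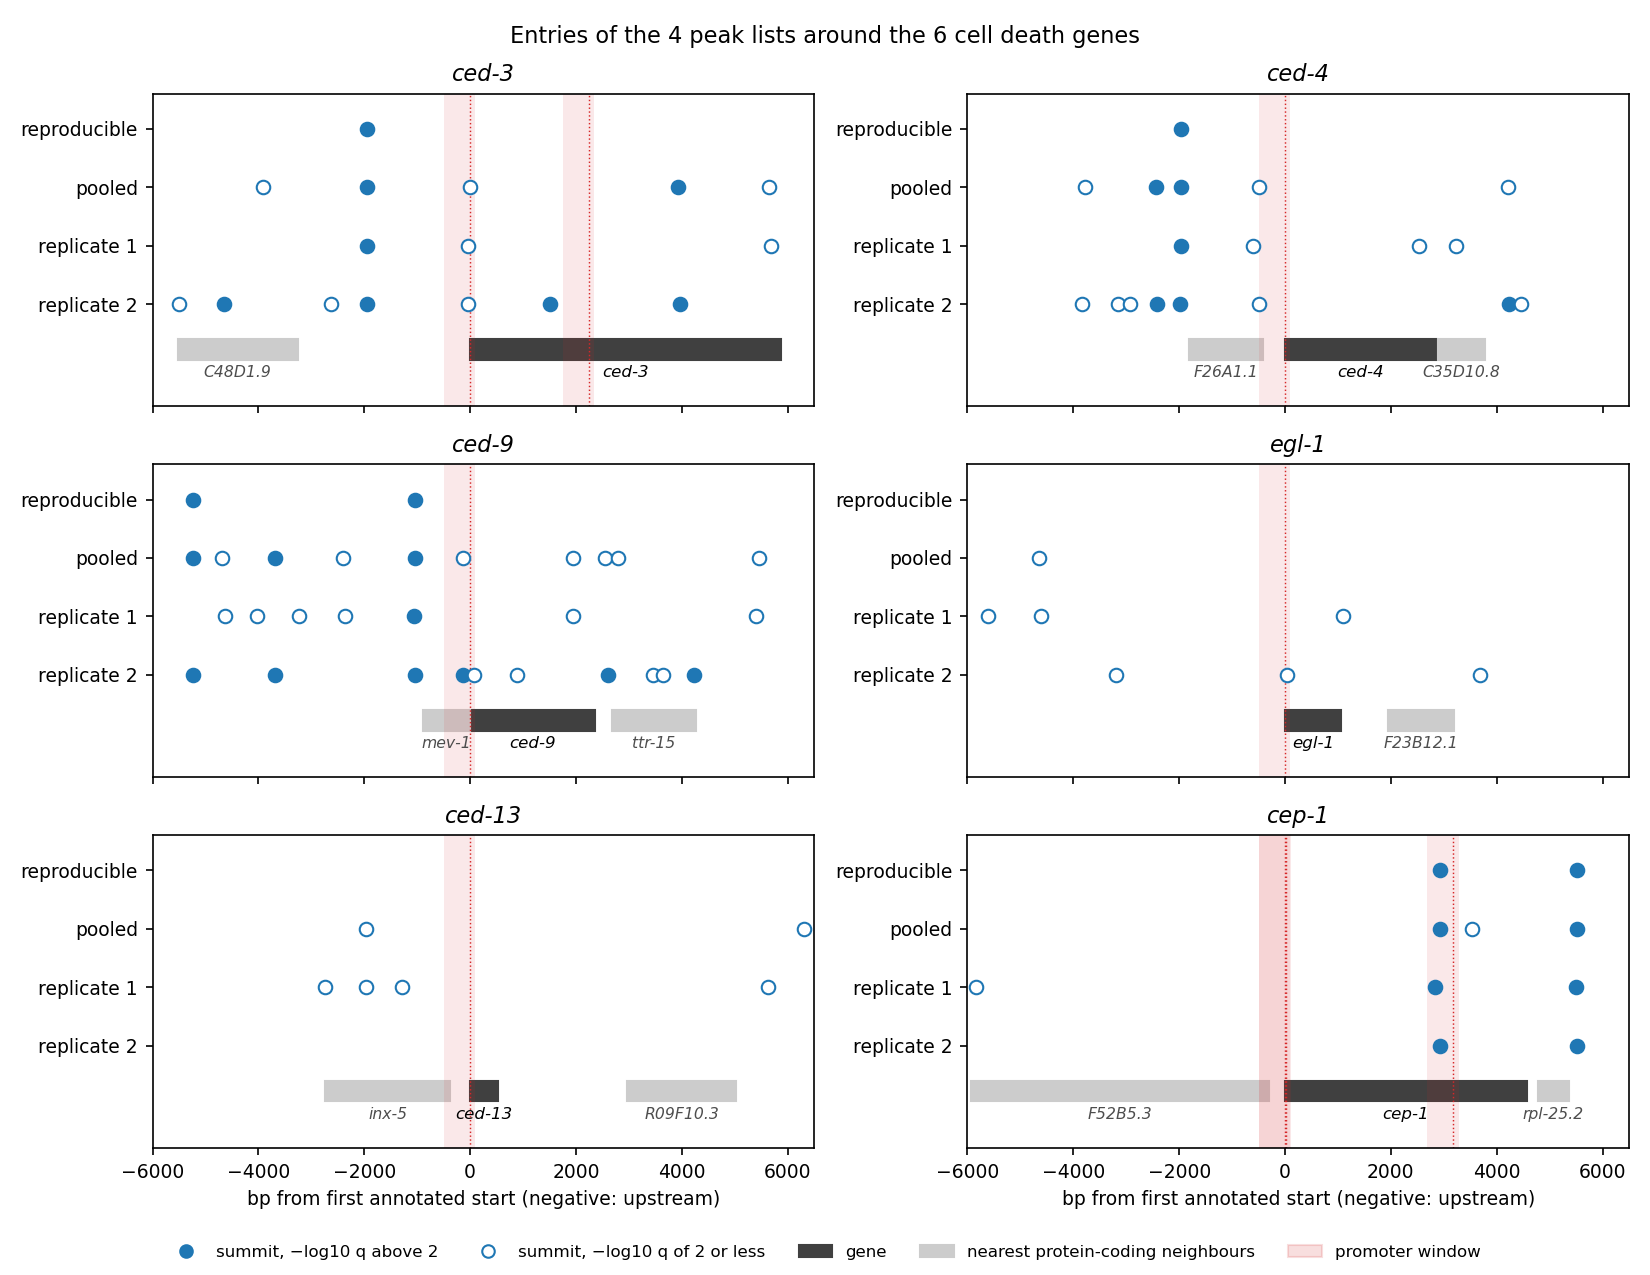
Summits of the 4 peak lists (rows) around each of the 6 genes, by distance in bp from the first annotated start. Filled points have a −log10 q above 2, open points do not. Filled points recur in all 4 lists near −1033 bp for ced-9, near −1969 bp for ced-4, near −1944 bp for ced-3 and before the internal start of cep-1, while egl-1 and ced-13 have open points only.

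The reproducible list held 3824 peaks with a median score of 101.2, on a scale that the authors did not state, and scores from 35.7 to 7157. The authors also deposited the lists of candidate entries that fed it. The pooled list held 28550 entries, of which 5262 had a −log10 of the authors' q-value above 2. The replicate 1 list held 30000 entries with 1196 above that limit, and the replicate 2 list held 28686 entries with 12800 above it. An entry of a candidate list is therefore weak evidence by itself. The reproducible peaks are entries of the pooled list with the same scores, while the list of each replicate was called separately, so that its scores are not compared with those of another list. Replicate support, meaning that each replicate list had an overlapping entry past that limit, was found for 1200 of the 3824 reproducible peaks, and the peaks of cep-1, ced-9, ced-4 and ced-3 were among them. Some other reproducible peaks had no overlapping entry at all in the replicate 1 list. The files carry no read counts, so the depth behind each peak was unknown.

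The cep-1 gene (WBGene00000467) lies on the plus strand of chromosome I, from 8324286 to 8328859. Its reproducible peak lay inside the gene, at chrI:8327140-8327277, with the summit 2933 bp past the first start, in an intron of every transcript present there. It counted as a promoter peak because the annotation has a further, internal start at 8327463, and the summit was at −244 bp from that start. The other 3 annotated starts lie side by side at the beginning of the gene, and no entry of any of the 4 lists had its summit in their promoters. The peak therefore lay at the internal start and not at the starts of the long transcripts. No other protein-coding promoter held the summit.

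The cep-1 peak was of middling strength. Its score of 125.5 ranked 1624 of 3824, where rank 1 is the strongest. Among the 2321 reproducible peaks in promoters it ranked 1293, and its gene stood at percentile 40.2 of the 2947 genes with a promoter peak. Next in the order of genes were kars-1, a lysyl-tRNA synthetase gene, with a score of 125.6, and kin-3, a casein kinase II subunit gene, which shared a peak of score 125.5 with mrpl-9, a mitochondrial ribosomal protein gene. The peak was narrow, at 138 bp, and 6.04% of reproducible peaks were as narrow or narrower.

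Both replicates held the cep-1 site. In the replicate 1 list its score was 27.7, with a −log10 q of 2.25 and rank 1153, and the summit was shifted by −93 bp from the reproducible one, away from the internal start. In the replicate 2 list its score was 97.4, with a −log10 q of 4.22 and rank 1815, at the same position. Within that promoter the E2F core TTGCCGC lay on the minus strand, 15 bp to the right of the summit. The next gene downstream, rpl-25.2, a ribosomal protein gene that reads towards cep-1, had a stronger peak of its own, with a score of 405.7 and rank 675, at −159 bp from its own start. The upstream neighbour F52B5.3 had no reproducible promoter peak.

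The BH3-only genes had no reproducible peak in any window. For egl-1 (WBGene00001170), on the minus strand of chromosome V from 14431308 to 14432359, the nearest reproducible summit was 7067 bp from the start, in the promoter of rrsr-1, with a score of 64.7 and rank 2641. For ced-13 (WBGene00000427), on the minus strand of the X chromosome from 8299119 to 8299654, it was 12718 bp away, in the promoter of sec-16A.2, with a score of 49.6 and rank 3112. These distances were not unusual. Over all protein-coding genes the median distance from a start to the nearest reproducible summit was 8894 bp, and 55.3% of genes were at least as far from one as egl-1 and 40.9% as far as ced-13. Both genes lie on chromosomes with few bound promoters. A reproducible promoter peak was present at 9.53% of the genes of chromosome V and 6.37% of those of the X chromosome, against 24.5% on chromosome III, where ced-9 and ced-4 lie, 14.3% on chromosome IV with ced-3 and 23.5% on chromosome I with cep-1.

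Weak candidate entries near the BH3-only genes differed between the replicates. For egl-1, the replicate 2 list had an entry at 34 bp past the start, in the first exon, with a score of 4.50, a −log10 q of 1.16 and rank 16246. The replicate 1 list had none in the promoter, the outer upstream window or the gene body of egl-1, and its nearest entry was 1098 bp from the start, just past the end of the gene. In the pooled list the nearest entry to egl-1 was 4645 bp away, and 15.8% of all genes were at least as far from one, against a median distance of 906 bp.

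For ced-13, the pooled list had an outer upstream entry at −1964 bp with a score of 9.59 and a −log10 q of 0.11. The replicate 1 list had outer upstream entries at −1968 bp, with a score of 7.39, and at −1293 bp, with a score of 6.04, both with a −log10 q of 0.16 or less. The replicate 2 list had none in any window, and its nearest entry to ced-13 was 11112 bp away, farther than for most genes, since 13.8% were at least as far and the median distance was 1246 bp. The genes beside both BH3-only genes were also without a reproducible promoter peak. They were F23B12.4, with 8781 bp between it and egl-1, and F23B12.1 on the other side, and inx-5, an innexin gene on the same strand 372 bp upstream of ced-13, and R09F10.3 downstream.

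The strongest of the death gene peaks lay upstream of ced-9 (WBGene00000423), which occupies chromosome III from 10335172 to 10337522 on the plus strand. This peak, at chrIII:10334009-10334265, had a score of 472 and rank 608 of 3824. Its summit was at −1033 bp from the ced-9 start. It lay between 2 other genes, at −138 bp from the start of mev-1 and −121 bp from that of jmjd-4, a gene for a JmjC-domain protein that reads the other way. The mev-1 gene encodes the cytochrome b subunit of succinate dehydrogenase and was formerly called cyt-1. It ends 3 bp before ced-9 on the same strand, and the pair is known to be transcribed together as an operon, so that the mev-1 promoter is also the promoter from which ced-9 is read.

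The replicates ranked the ced-9 upstream peak differently, as 1054 in replicate 1, with a score of 31.1 and a −log10 q of 2.48, and as 579 in replicate 2, with a score of 443 and a −log10 q of 4.22. Of the 4 death gene peaks it had the highest score in replicate 2 and the third highest in replicate 1. Among promoter peaks of any gene it ranked 549 of 2321. At the ced-9 start itself there was no reproducible peak. The pooled list had an entry at −131 bp with a score of 9.77 and a −log10 q of 0.11, and the replicate 2 list had one at the same place with a score of 7.02 and a −log10 q of 2.56, but the replicate 1 list had none there. The downstream neighbour ttr-15, 324 bp away, had no reproducible promoter peak.

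The adaptor gene ced-4 (WBGene00000418) lies on the plus strand of chromosome III from 4852325 to 4855171. The peak upstream of it, at chrIII:4850234-4850449, had a score of 260.1 and rank 931. Its summit was at −1969 bp from the ced-4 start, just inside the outer upstream limit, and lay at −151 bp from the start of F26A1.1, the same-strand neighbour that ends 414 bp before ced-4. It was also at −449 bp from the start of nonu-1, which reads the other way and encodes a nuclease of ribosome-associated mRNA decay. The peak ranked 751 in replicate 1, with a score of 49.7 and a −log10 q of 3.22, and 944 in replicate 2, with a score of 222 and a −log10 q of 4.22. The summits of the replicates were shifted from the reproducible one by 9 bp in replicate 1 and −10 bp in replicate 2, so that the lists placed the site alike.

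At the ced-4 start, entries were weak. The pooled list had one at −489 bp with a score of 13.03 and a −log10 q of 0.40, and the replicate 2 list had one at −498 bp with a score of 4.35 and a −log10 q of 1.09. The replicate 1 list had its nearest entry at −600 bp, outside the promoter, with a score of 6.02. None of these passed a −log10 q of 2. The downstream neighbour C35D10.8, 46 bp away, had no reproducible promoter peak.

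The caspase gene ced-3 (WBGene00000417) lies on the minus strand of chromosome IV from 13198261 to 13204137 and has 2 annotated starts. Its upstream peak differed from those of ced-9 and ced-4 in that no protein-coding promoter held the summit. The peak, at chrIV:13205955-13206209, had a score of 403 and rank 679, with its summit at −1944 bp from the first start. Among the 1503 reproducible peaks outside every protein-coding promoter it ranked 71. It lay in the stretch of 3254 bp between ced-3 and C48D1.9, the next protein-coding gene upstream on the same strand. The nearest gene of any type was an annotated pseudogene, WBGene00044909, 702 bp from the summit and with its start 1197 bp away.

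Both replicates placed the ced-3 upstream peak within 12 bp of the reproducible summit. It ranked 607 in replicate 1, with a score of 67.9 and a −log10 q of 3.22, and 695 in replicate 2, with a score of 337 and a −log10 q of 4.22. In replicate 1 this was the highest score of the 4 death gene peaks. Neither C48D1.9 nor C48D1.1, which begins downstream of ced-3 after a gap of 878 bp, had a reproducible promoter peak.

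Weak entries lay right at the ced-3 start in the other 3 lists. They were at 2 bp past the start in the pooled list, with a score of 16.4 and a −log10 q of 0.84, at −45 bp in replicate 1, with a score of 8.25 and a −log10 q of 0.20, and at −46 bp in replicate 2, with a score of 3.86 and a −log10 q of 0.83. All 3 were below a −log10 q of 2. Inside ced-3, the pooled list had an intronic entry with its summit at 13200201, with a score of 31.5 and a −log10 q of 3.22, which fell short of the lowest reproducible score of 35.7. Replicate 2 had it with a score of 33.7 and a −log10 q of 4.22, and replicate 1 had no entry there. Replicate 2 also had an intronic entry at 13202620, with a score of 10.09 and a −log10 q of 3.75, that the other lists lacked. Exonic entries lay at 13198482 in the pooled list, with a −log10 q of 0.12, and at 13198459 in replicate 1, with 0.25.

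**Figure D2:**
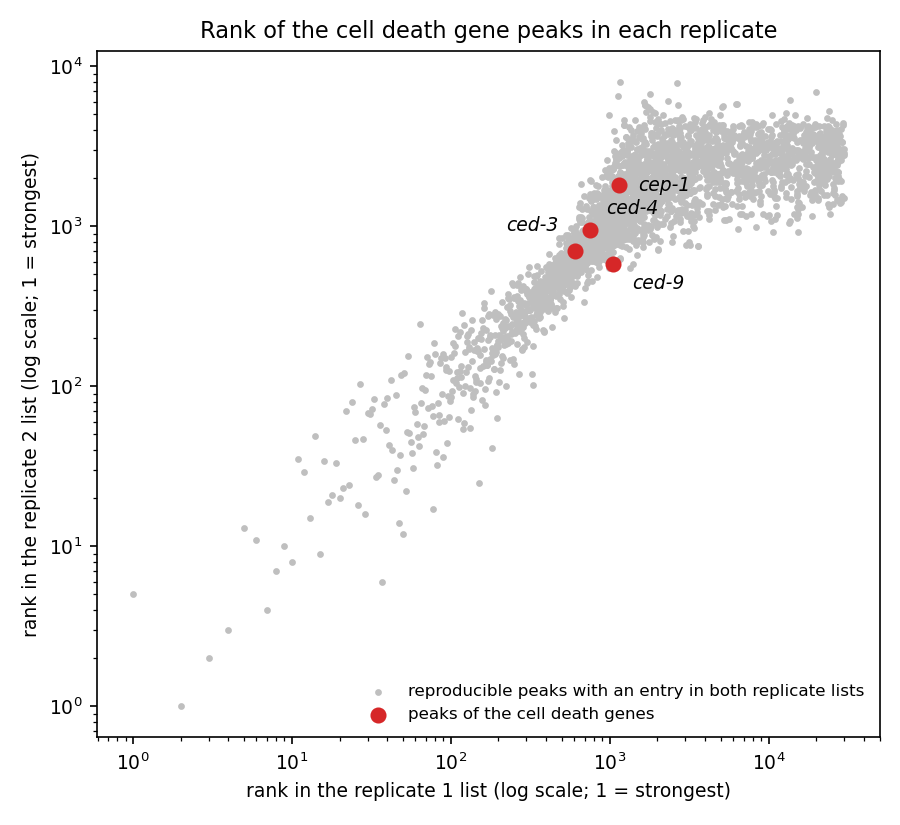
Rank of each reproducible peak in the replicate 1 list (horizontal) and the replicate 2 list (vertical), both on log scales with 1 the strongest. Red points are the peaks of cep-1, ced-9, ced-4 and ced-3, which sit between ranks 607 and 1153 in replicate 1 and 579 and 1815 in replicate 2. Grey points are the other reproducible peaks with an entry in both lists.

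The candidate lists, in which weak entries are common, held summits at more of the death genes and at more genes in general. In the pooled list, 4 of the 6 had a summit in the promoter (ced-3, ced-4, ced-9 and cep-1), against 33.2% of all genes, 4 in the outer upstream window, against 37.9%, and 3 in the gene body, against 35.1%. In the replicate 1 list, the promoters of 2 of the 6 (ced-3 and cep-1) held a summit, against 30.1% of all genes, with 4 in the outer upstream window, against 40.9%, and 3 in the gene body, against 42.3%. In the replicate 2 list, the promoters of 5 of the 6 held one, all but that of ced-13, against 33.9% of all genes, with 3 in the outer upstream window, against 34.8%, and 2 in the gene body, against 30.6%. With a −log10 q above 2, cep-1 alone was left in the promoter count of replicate 1, against 6.94% of all genes. In replicate 2, cep-1 and ced-9 were left, against 24.7% of all genes.

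Where the promoter of the first gene of a same-strand run counted for every gene of the run, with gaps of at most 500 bp, 3 of the 6 death genes had a reproducible promoter peak, against 20.3% of all genes. These were cep-1, ced-9 through mev-1 and ced-4 through F26A1.1. The ced-9 run matches a known operon, while for ced-4 the rule rests on the gap of 414 bp alone. The count of upstream peaks depended on the distance limit. With 1500 bp in place of 2000 bp, a limit tried after the data were seen, ced-9 was the 1 member left, against 5.05% of all genes, since the ced-4 and ced-3 summits were both close to the 2000 bp limit. With 3000 bp the count was 3 again, against 10.2% of all genes.

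The E2F cores searched were TTCCCGC or TTCGCGC or TTGCCGC or TTGGCGC, on both strands. Within promoters, 1 of the 6 death genes had a match, namely cep-1, at its internal start, and 20.7% of all genes did. With 4 annotated starts, cep-1 had more sequence searched than a gene with 1 start. In promoters that reached from 1000 bp upstream to 200 bp downstream, ced-9, ced-3 and egl-1 had a match too, making 4 of 6, against 33.9% of all. Within 50 bp of the summit, 1 of the 4 death gene peaks (that of cep-1) had an E2F core, against 16.8% of the 3824 reproducible peaks. The CHR cores, to which the DREAM subunit LIN-54 is known to bind, were present within 50 bp of the summit in all 4 death gene peaks, against 34.4% of reproducible peaks. On the chromosome's plus axis they lay at 34 bp from the summit for cep-1, 6 bp for ced-9, 31 bp for ced-4 and −28 bp for ced-3.

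A CHR core is short and common. It was present in the promoters of 91.2% of all genes and of 5 of the 6 death genes, ced-9 being the exception. Among the stronger 50% of reproducible peaks, to which the 4 death gene peaks belong, 42.1% had a CHR core near the summit, and among the weaker 50% 26.7% did. The GC content from 50 bp before to 50 bp after the summit was 38.6% for cep-1, 55.4% for ced-9, 46.5% for ced-4 and 52.5% for ced-3, against a median of 45.5% over all reproducible peaks. A match is a description of the letters in the window, and whether EFL-1 or its partners use it was not tested.

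The genes around the core pathway were read in the same way, from 8 lists by role. Of 78 matched genes in them, 21 (26.9%) had a reproducible promoter peak, against 1 of 6 in the core and 14.8% of all genes. For these 78 genes, this gap was not present among the better supported or stronger peaks. Their peaks were mostly weak, with a median score of 70.2, against 169.2 over all genes with a promoter peak. A further 12 of the 78 had an outer upstream peak and none in the promoter, as 1392 of the 19973 protein-coding genes (6.97%) did. With that support from each replicate, 5 of the 78 (6.41%) had a promoter peak, against 6.93% of all genes. These were pig-1, dnj-11, crn-1, ced-5 and pqn-41, and the cep-1 peak had that support too. So did the mev-1 peak, left out because its listed symbol cyt-1 was not matched. The direction of the difference between 6.41% and 6.93% therefore rests on 1 gene. In the stronger 50% of reproducible peaks the share was 7.69%, against 9.85% of all genes. Among the 3824 strongest entries of replicate 1 alone, 10 of the 78 (12.8%) had a promoter peak, against 11.8% of all genes. In those of replicate 2 alone, the shares were 26.9% and, over all genes, 14.8%. None of these differences was tested.

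None of the other 3 caspase-family genes, csp-1, csp-2 and csp-3, had a reproducible promoter peak, where 14.8% of all genes had one. That share is the background for each list by role, and with lists this small no count was tested. Of 18 regulators that set the transcription of death genes or the fate of dying cells, 5 (27.8%) had a reproducible promoter peak. The strongest was at pig-1, which encodes a MELK-family kinase of asymmetric division, with a score of 1387 at −144 bp. It was followed by dnj-11, a DnaJ-family chaperone gene, with 417 at −251 bp, and by eor-1, a zinc finger factor gene, with 97.8 at −135 bp. The eor-1 peak had a −log10 q of 0.1 in replicate 1. Of 8 regulators of cep-1 or its product, 2 had a peak, both with a −log10 q below 2 in replicate 1. These were sir-2.1, a sirtuin gene, with a score of 126.7, and cbp-1, the p300/CBP acetyltransferase gene, with 46.1.

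Among genes that act after the caspase, those for DNA degradation had a promoter peak in 4 of 12 cases (33.3%), against 14.8% of all genes. The nuclease gene crn-1 led them, with a score of 572 at −432 bp. The next were dcr-1, whose Dicer product is cut by CED-3 into a DNase, with 57.2, and wah-1, the AIF homologue, with 56.0. Of 8 membrane and mitochondrial genes, fzo-1, a mitofusin gene, with 72.0, and tat-1, a phospholipid translocase gene, with 54.3, had one. The mev-1 gene, listed there as cyt-1 and not matched, had a stronger promoter peak, with a score of 471.7, that is not counted. Of 12 engulfment genes, 4 had one, and ced-5, the DOCK180-like activator of CED-10, was the strongest with 351 at −201 bp. The Rac gene ced-10 itself had 51.4 and unc-73, a Trio-like exchange factor gene, had 47.0. Of 11 phagosome genes, unc-108, the Rab2 gene, with 53.6, and dyn-1, the dynamin gene, with 46.6, had one. Of 6 genes of non-apoptotic death, pqn-41, which acts in linker cell death, with 301.6, and tir-1, the SARM1 homologue, with 94.5, had one. The peaks of dnj-11, dcr-1, ced-5 and pqn-41 each lay in the promoter of another gene as well. Of the peaks in this paragraph, those of crn-1, ced-5, pqn-41 and mev-1 were supported in each replicate, and the others were not. The ced-10 and unc-108 peaks had no overlapping entry in the replicate 1 list.

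The DNA damage checkpoint, which signals to CEP-1, stood apart from the core pathway in these lists. Of 9 checkpoint genes, 7 (77.8%) had a reproducible promoter peak, with a median score of 753.7, against 14.8% of all genes. Of the 6 core death genes, 1 had one at its own starts, with a score of 125.5. With the first gene of a same-strand run counted, 8 checkpoint genes (88.9%) and 3 core genes (50%), ced-9 among them, had one, against 20.3% of all genes. The strongest checkpoint peaks were at hpr-17, a clamp loader gene, with 3426, mrt-2, a 9-1-1 clamp gene, with 2319, and chk-1, a checkpoint kinase gene, with 1508. In 6 of the 7, the peak was supported in each replicate. Of the 7 peaks, those of mrt-2 and chk-1 alone had a summit in no other gene's promoter. The hpr-17 summit and all the rest each lay in the promoter of another gene as well. The difference between the lists was not tested, since their members were chosen with earlier results known.

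**Figure D3:**
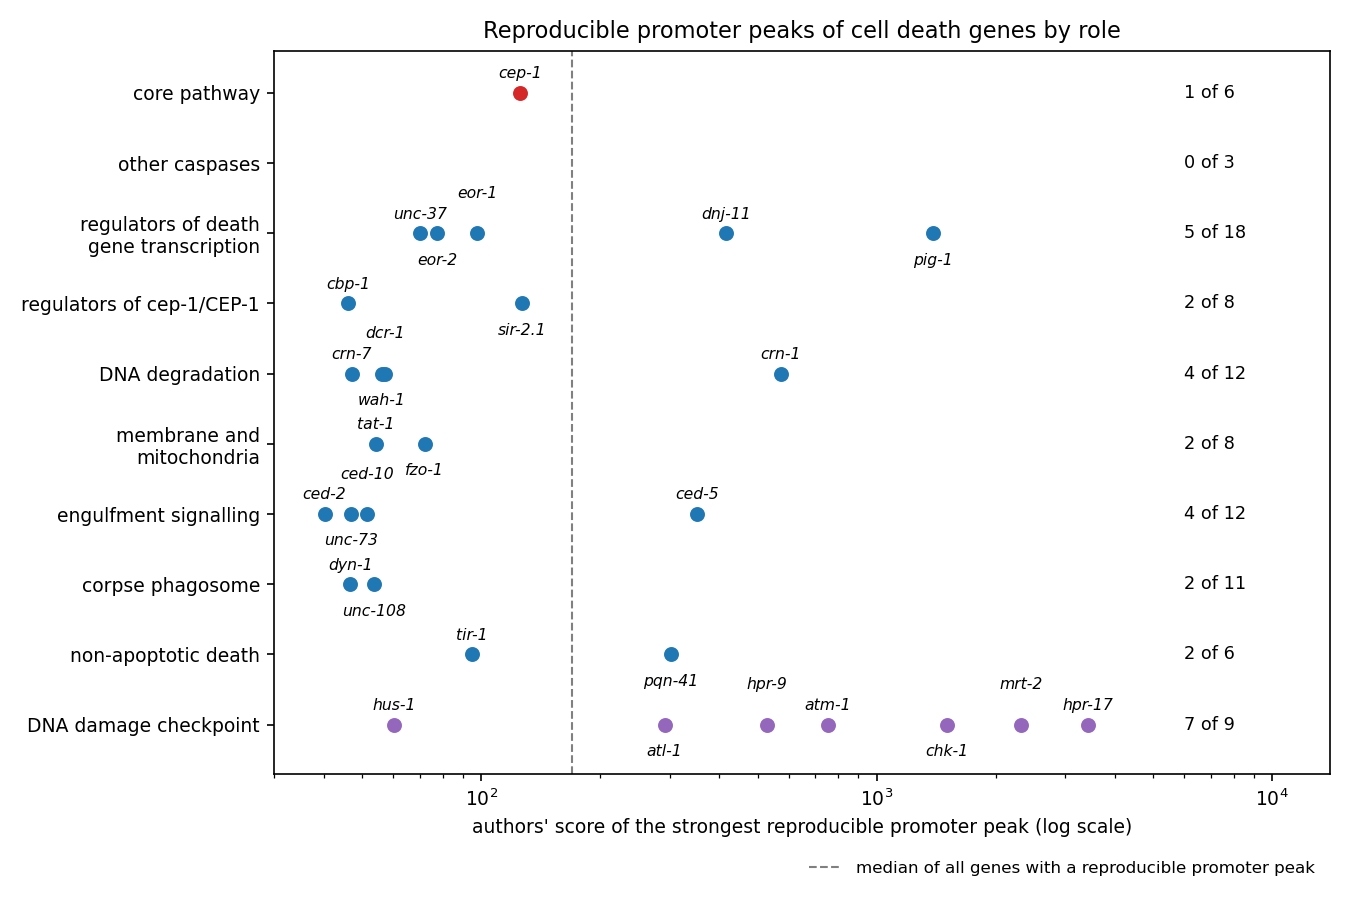
Score of the strongest reproducible promoter peak (log scale) of each gene that has one, by role, with the number of genes that have one at the right. The core pathway has cep-1 alone, left of the dashed line at 169.2, the median of all genes with a promoter peak, and 6 of 7 checkpoint genes lie right of it.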

How the data were processed

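Peak lists of 2 EFL-1::GFP libraries (1 group) were used in the ce11 build. The library text files deposited by the authors say that candidate lists came from each replicate and from both pooled, each set against a control alignment that is not analysed here. The reproducible list is their optimal list after filtering by irreproducible discovery rate. Not given in the sources used here were the aligner, the caller and the threshold. Peak score is a value the authors deposited on an unstated scale and was used to rank peaks within a list. The −log10 of a q-value and the summit offset in bp, another deposited value, were used as the authors gave them.

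Summits were assigned to starts of Ensembl release 115 genes (WBcel235) with Python 3.11.15, pandas 2.3.3 and numpy 2.4.6. Sequence came from the RefSeq copy of that assembly. The window assignment was tested on simulated data, with 200 planted summits. The members and gene lists were chosen with earlier results of these data known. Genes named were the members, genes sharing their peaks, their nearest neighbours, genes next to cep-1 by score, and up to 3 genes of each wider list with the strongest peaks. The genes at the nearest peak to egl-1 and to ced-13 were named after their values were seen. The symbol cyt-1, a former name of mev-1, matched none, leaving 78 of 79 wider genes. The mev-1 promoter peak, with a score of 471.7, is therefore outside the counts of wider genes. Lists were counted and not tested. The replicates are labelled biological; what they share beyond that label is not stated. The alternatives were other lists, thresholds, windows and assignments.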

Additional observations from a re-analysis of the deposited data

How the results depend on the processing

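The count of 1 death gene with a reproducible promoter peak, cep-1, held in 8 of the 10 alternatives, including the strongest entries of either replicate alone (1 and 1). Of these alternatives, the stronger 50% of peaks, support in each replicate, the narrower promoter and the nearest start could not raise the count. None of the alternatives left out the internal start of cep-1, on which its place in the count rests. The promoters of its other annotated starts held no summit in any list. The count was 4 with all pooled entries and 3 with the first gene of a same-strand run. The count of 3 with an upstream peak alone was 3 and 3 in either replicate, and 1 with a limit of 1500 bp. This limit, like every alternative for that count, was chosen after the data were seen. Of 6 promoters, 4 held an E2F core in the wider window, against 1 in the main one. The 21 wider genes with a promoter peak (26.9%, against 14.8% of all genes) became 41 with all pooled entries (52.6%, against 33.2%) and 13 with the narrower promoter (16.7%, against 10.1%). They became 6 in the stronger 50% of peaks (7.69%, against 9.85%) and 5 among peaks supported in each replicate (6.41%, against 6.93%). Both shares were below those of all genes. The uncounted mev-1 peak was also supported in each replicate, so the direction of the last of these differences rests on 1 gene. The wider genes with a promoter peak ranged from 10 to 21 without a replicate, and the 10, without replicate 2, were 12.8%, against 11.8% of all genes. The 7 checkpoint genes stayed between 5 and 8, with 7 and 7 without a replicate. Over all genes the count of 2947 became 6633 with all pooled entries and 1385 with support in each replicate, and ranged from 2350 to 2947 without a replicate. The percentile of cep-1 among genes with a promoter peak was 73.5 with all pooled entries and 10.5 in the stronger 50%, both of which change the genes it is ranked among. No paired analysis was possible because the series has 1 group and no contrast between samples. The unknown depth and the low number of entries of replicate 1 with a −log10 q above 2 limit what weak entries can show.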
